A study of Homo sapiens with 6 samples.

Results

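The gene ends described here are annotated ends of protein-coding genes at which a library called more than 1 accessible site. A gene end was taken when at least 2 peak summits of the same library's list lay within 1000 bp of it and at least 250 bp apart, in at least 1 of 6 lists. A summit is the base of highest signal within a called peak. On chromosomes 1 to 22 of GRCh38, 3177 of 38252 gene ends met this rule, which is 8.31% of all ends and 22.8% of the 13960 ends with a summit in any list. They belonged to 3126 of 19126 genes (16.3%), and ends closer than 1000 bp to each other formed 2751 separate loci. The RefSeq promoter table gave a strand for 15101 genes, so 2409 of the ends were known to be gene starts, 181 were gene stops, and 587 were of genes with no strand in that table. The ends were thus selected on the measured summits, their positions and their number in each list, so how many summits each library called at these ends is given as a description and supports nothing.

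Accessibility was measured by InTAC-seq, a variant of ATAC-seq that works on cells fixed and stained with an antibody, in which the transposase Tn5 inserts sequencing adapters into open DNA. All 6 libraries came from GM12878, a lymphoblastoid line of B cells immortalised by Epstein-Barr virus, and were prepared from 50000 cells each. The first group comprised 2 libraries of cells sorted for high staining of H3K27ac, an acetylation of histone H3 found at active promoters and enhancers, and the second comprised 2 libraries of cells sorted for low staining. Cells for both groups were stained for viability, fixed with paraformaldehyde, permeabilised, stained and gated on size and viability, and crosslinks were reversed after transposition. The third group comprised 2 libraries of live, unsorted cells, prepared from fresh cells with the DNA purified straight after transposition, so fixation, staining, sorting and crosslink reversal cannot be told apart between sorted and live libraries. The labels give 1 cell line and no separate cultures, and sorted cells were divided into replicates, so p-values measure only a spread between libraries that may be technical.

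Transcription of most human genes starts in a stretch of DNA freed of nucleosomes, where general transcription factors and sequence-specific factors bind. Many such promoters are rich in CG dinucleotides, start transcription at several places, and carry a second promoter, a divergent neighbour or an enhancer-like site close by. A nucleosome lies just downstream of the start, so accessible DNA upstream of it and accessible DNA deeper in the gene can appear as separate peaks.

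The 7 stretches below are the 250 bases before the annotated start of genes that represent the patterns described further on, from RefSeq promoters on GRCh38.p14. Each is printed 5′ to 3′ on the gene's strand, and capitals mark matches to a searched motif on either strand. CREBRF is shown for a pair of summits called by every library, UTP18 and KIAA0232 for a best summit that differed between high and low libraries, DNAJB4 and MAD2L1BP for differences between sorted and live libraries, and SPIB and CD79A as B cell genes.
CREBRF: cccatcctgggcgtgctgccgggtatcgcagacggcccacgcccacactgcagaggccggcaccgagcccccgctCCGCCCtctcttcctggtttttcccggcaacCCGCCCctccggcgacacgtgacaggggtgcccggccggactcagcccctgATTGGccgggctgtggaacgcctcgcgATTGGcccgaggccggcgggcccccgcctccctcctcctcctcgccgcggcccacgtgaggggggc
UTP18: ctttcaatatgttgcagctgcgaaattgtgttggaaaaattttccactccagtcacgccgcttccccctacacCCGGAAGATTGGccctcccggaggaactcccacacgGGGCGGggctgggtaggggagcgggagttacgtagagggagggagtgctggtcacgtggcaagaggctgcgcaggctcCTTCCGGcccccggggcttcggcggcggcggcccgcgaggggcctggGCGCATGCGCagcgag
KIAA0232: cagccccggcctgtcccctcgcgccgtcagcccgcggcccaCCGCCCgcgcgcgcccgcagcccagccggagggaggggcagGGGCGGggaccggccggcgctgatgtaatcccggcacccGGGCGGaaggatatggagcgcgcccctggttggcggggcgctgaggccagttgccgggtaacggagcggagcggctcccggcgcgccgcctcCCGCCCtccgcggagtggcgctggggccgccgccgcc
DNAJB4: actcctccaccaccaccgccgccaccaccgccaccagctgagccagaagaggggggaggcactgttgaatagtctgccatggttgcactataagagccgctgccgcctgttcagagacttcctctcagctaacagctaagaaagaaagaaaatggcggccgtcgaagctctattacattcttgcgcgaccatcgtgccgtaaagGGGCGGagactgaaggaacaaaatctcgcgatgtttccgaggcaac
MAD2L1BP: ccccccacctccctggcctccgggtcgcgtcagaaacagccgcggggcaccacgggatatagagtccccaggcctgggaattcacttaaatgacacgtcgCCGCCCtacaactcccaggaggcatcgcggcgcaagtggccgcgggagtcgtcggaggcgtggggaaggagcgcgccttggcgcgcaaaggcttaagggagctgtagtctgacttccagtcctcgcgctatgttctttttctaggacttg
SPIB: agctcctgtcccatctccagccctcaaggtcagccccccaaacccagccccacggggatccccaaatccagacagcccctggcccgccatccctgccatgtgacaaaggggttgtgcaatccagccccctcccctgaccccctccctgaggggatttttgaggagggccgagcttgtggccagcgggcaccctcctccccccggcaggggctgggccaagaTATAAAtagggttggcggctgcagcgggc
CD79A: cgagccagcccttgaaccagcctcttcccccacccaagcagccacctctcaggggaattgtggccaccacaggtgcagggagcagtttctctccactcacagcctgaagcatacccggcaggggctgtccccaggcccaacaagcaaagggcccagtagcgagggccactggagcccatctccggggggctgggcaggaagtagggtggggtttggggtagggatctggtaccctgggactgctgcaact

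In the CREBRF stretch, chr5:173056102-173056351, the capitals mark 2 matches to the GC box GGGCGG and 2 to the CCAAT box, all on the reverse strand. The upstream summit of CREBRF fell at base 153 of this stretch in high replicate 1, base 151 in high replicate 2 and low replicate 1, base 157 in low replicate 2, and bases 169 and 177 in the live libraries. All 6 summits thus lay between the second GC box and the second CCAAT box, which starts at base 185. The UTP18 stretch, chr17:51260296-51260545, held 6 matches, to the ETS motif CCGGAAG, the CCAAT box, the GC box and the NRF1 motif GCGCATGCG. The NRF1 motif was matched on both strands, from bases 235 and 236, which is 1 overlapping site. Only the low libraries had a summit in this stretch, at bases 145 and 163, between the GC box and the second ETS match. The KIAA0232 stretch, chr4:6782477-6782726, held 4 GC boxes, and the summits of the 4 sorted libraries fell between bases 170 and 217 of it. The stretch before DNAJB4, chr1:77978925-77979174, and that before MAD2L1BP, chr6:43629290-43629539, each held 1 GC box. The SPIB stretch, chr19:50418688-50418937, held a TATA box (TATAAA) at base 222, and low replicate 1 had its summit at base 218. No searched motif was matched in the CD79A stretch, chr19:41877029-41877278, where 5 libraries had a summit between bases 59 and 130.

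The lists differed in length, which touches every count that follows. On chromosomes 1 to 22 the high lists held 24798 and 45092 summits, the low lists 40489 and 50198, and the live lists 67823 and 70083. High replicate 1 stood apart with the shortest list, and when each list was limited to its 24798 best-scoring summits, that library alone kept its weakest calls. Of 10 B cell marker genes, 6 and 10 had a summit at an end in high libraries, 9 and 10 in low libraries and 10 in each live library. Of 7 T and NK cell markers, 4 had one in each sorted library and 5 in each live library, with CD3G and GNLY without a summit in any list. Of 6 myeloid markers, 0 to 2 had one, with LYZ, MPO, CSF1R and S100A8 at 0 in all lists, and of 3 erythroid markers 0 or 1 had one.

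High replicates 1 and 2 called 2 or more summits at 553 and 1050 gene ends, the low replicates at 826 and 1041, and the live replicates at 1389 and 1378. As shares of the ends with any summit in that list, these were 6.18% and 9.14% for high, 7.35% and 8.72% for low, and 10.7% and 10.6% for live. The group means were 7.66 ± 2.10% for high, 8.04 ± 0.973% for low and 10.7 ± 0.0878% for live (SD, n = 2 libraries each). At equal list length the order was the reverse, with 553 and 280 doubled ends for high, 287 and 269 for low and 174 and 160 for live. The shares were then 4.55 ± 2.31%, 2.76 ± 0.125% and 1.68 ± 0.097% (SD, n = 2 each). High replicate 1, at 6.18%, was the only library far above its partner, which had 2.91%, and high replicate 2 and both low libraries lay between 2.67% and 2.91%. Without high replicate 1 the rule found 2951 ends.

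**Figure D1:**
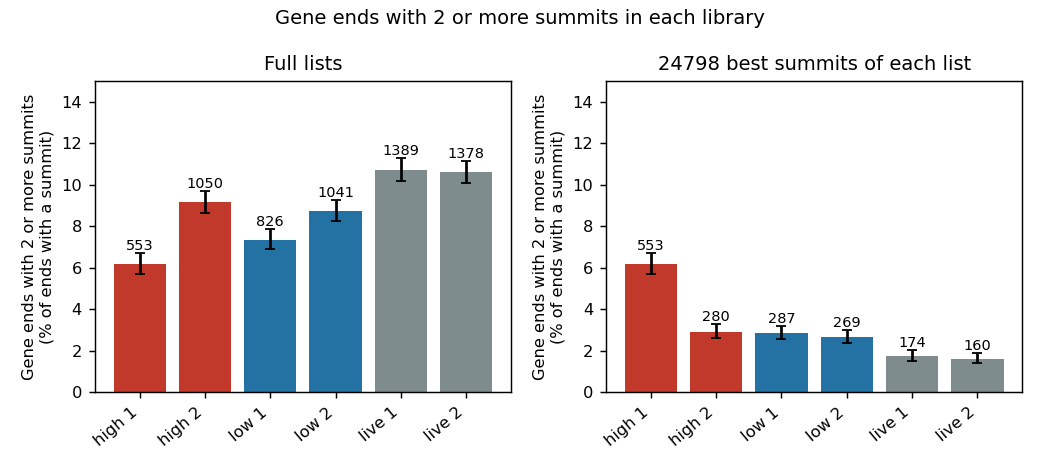
Gene ends with 2 or more summits in each library, as a percentage (y axis) of the ends with any summit in that library, in the full lists and in the 24798 best-scoring summits of each list. Bars are single libraries with Wilson 95% intervals, which cover counting error only; the live libraries are highest in the full lists (10.7% and 10.6%) and lowest at equal length (1.75% and 1.62%).

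Most ends were doubled in few lists. Of the 3177 ends, 1654 (52.1%) had 2 or more summits in 1 list only, 741 in 2 lists, 335 in 3, 208 in 4, 170 in 5 and 69 (2.17%) in all 6. Without high replicate 1, 51.5% of the ends were doubled in 1 of the other 5 lists and 186 in all 5. Of the ends doubled in 1 list only, 226 and 240 were in the high replicates, 139 and 167 in the low replicates, and 423 and 459 in the live replicates. Replicates of a group shared few of their doubled ends: 218 of the 1385 ends doubled in either high library were doubled in both (15.7%), against 479 of 1388 for low (34.5%) and 716 of 2051 for live (34.9%). In all, 496 ends were doubled in high libraries alone, 344 in low libraries alone, and 1145 in live libraries alone. At least 1 summit was called in all 6 lists at 2281 of the ends (71.8%). Among the other 10783 ends with a summit, 6411 (59.5%) had one in all 6.

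Summits of the 6 lists were joined into positions where neighbouring summits lay closer than 100 bp. The ends held 6695 positions, of which 2487 (37.1%) were called in 1 list and 1619 (24.2%) in all 6, with 506 to 878 at each number between. The number of positions per end was 2 at 2112 ends, 3 at 809, 4 at 195 and 5 or more at 60, up to 7. High replicates 1 and 2 called 37.2% and 53.0% of the positions, the low replicates 49.4% and 53.4%, and the live replicates 60.4% and 60.1%. At equal list length these shares were close to each other, at 37.2% and 35.7% in high, 37.8% and 36.8% in low, and 35.0% and 34.5% in live libraries.

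**Figure D2:**
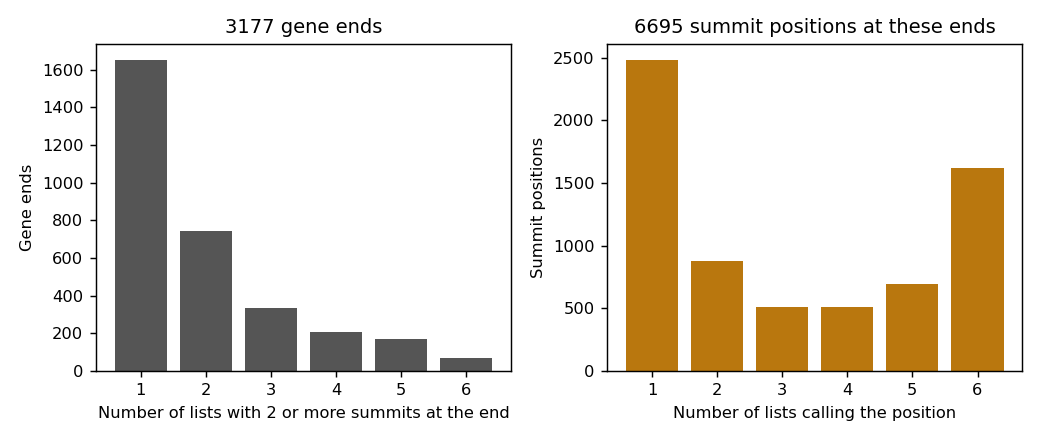
Left, number of gene ends (y axis) by the number of lists in which the end had 2 or more summits (x axis); right, number of summit positions (y axis) by the number of lists that called the position (x axis). Ends fall off steadily, with 1654 in 1 list and 69 in all 6, whereas positions pile up at both extremes, with 2487 in 1 list and 1619 in all 6.

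The leading position of an end was the one called in most lists, ties going to the better mean rank. It was called in all 6 lists at 1809 ends (56.9%), whereas of the 4564 other positions, counted once per end, 51 (1.12%) were called in all 6 and 2879 (63.1%) in 1 list. Scores were compared only within a list, as a percentile rank in which low numbers are the strongest summits. The median mean percentile rank was 24.8 for leading and 72.7 for other positions. The choice of the leading position in part fixes this contrast and the contrast in the number of lists.

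Leading positions sat at the gene start, and other positions lay mostly inside the gene. At the 2409 starts the median leading position was 59.4 bp upstream of the annotated start, with quartiles from 25.3 bp inside the gene to 128 bp upstream. It lay within 150 bp of the start at 64.3% of them, against 15.7% of the 3423 other positions. Of the other positions, 64.4% lay inside the gene, at a median of 567 bp from the start, and those upstream lay at a median of 485 bp. They were most frequent 500 to 600 bp inside the gene, with 374 positions, against 105 at 200 to 300 bp inside and 120 at 500 to 600 bp upstream. Another 227 lay in the 100 bp just upstream of the start. The rule asks for summits at least 250 bp apart, so it thins the other positions near the leading one. These contrasts in distance, with the low count at 200 to 300 bp inside, are thus in part fixed by the rule. At the 181 stops the leading position lay within 150 bp of the end in 13.3% and beyond the gene in 61.9%, and 50.8% of these stops had an end of another protein-coding gene within 1000 bp.

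**Figure D3:**
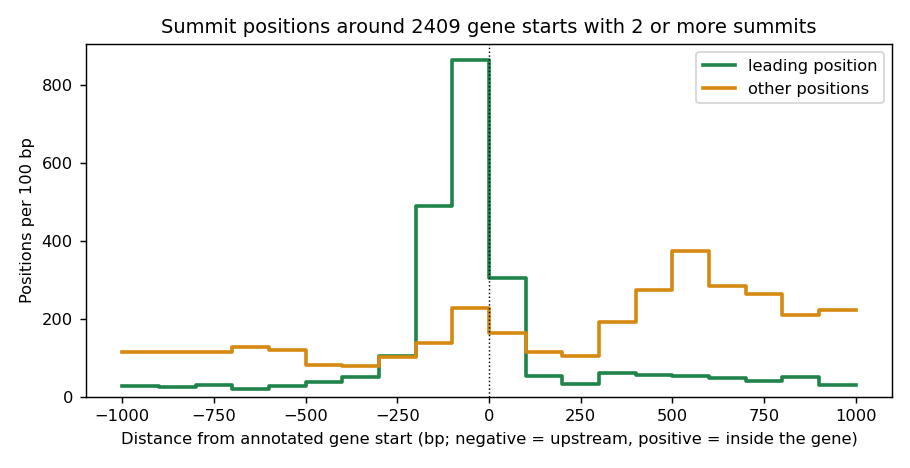
Number of summit positions per 100 bp (y axis) by distance from the annotated gene start (x axis; negative is upstream, positive is inside the gene), at 2409 starts with 2 or more summits, for the leading position and for the other positions of each start. Leading positions peak just upstream of the start, with 864 in the first 100 bp, and other positions have their highest bin 500 to 600 bp inside the gene, with 374.

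Within a library, the best-scoring summit usually lay outside the gene. At equal length this held for 63.3% and 66.8% of the doubled ends of high libraries, 64.8% and 71.7% of those of low libraries, and 62.6% and 58.1% of those of live libraries. High averaged 65.0 ± 2.47% and low 68.3 ± 4.91% (SD, n = 2 each), a difference of -3.24 percentage points that did not pass an exact two-sided permutation test (p = 0.667, where 2 against 2 libraries cannot go below 0.333). The 4 sorted libraries averaged 66.7 ± 3.68% and the 2 live libraries 60.4 ± 3.20% (SD), a difference of 6.27 points (exact two-sided permutation test, p = 0.133, smallest possible 0.0667). In the full lists that difference was 0.578 points (exact permutation test, p = 0.867). The weaker summit of doubled ends had a median percentile rank of 72.8 ± 0.425 in high and 73.1 ± 2.05 in low libraries at equal length (SD, n = 2 each; exact permutation test of the difference, p = 1). In the full lists, doubled starts had the best summit upstream and the second inside at 42.1% to 48.9% of starts in the 6 libraries, and the converse at 14.4% to 18.7%. Both summits lay upstream at 17.2% to 22.2% and both inside at 15.9% to 19.0%.

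At the doubled ends, the 6 libraries mostly put their best summit at the same position. The shares that follow cover these ends alone. No share over all gene ends is given beside them, so whether they are high or low for gene ends at large was not tested. At equal length, 2009 of the ends had a summit in all 6 libraries, and the best position was the same in all of them at 1534 (76.4%). Between the high replicates the best position was the same at 87.3% of ends called in both, between the low replicates at 93.7%, and between the live replicates at 89.8%. Pairs from different groups shared it at 83.6% to 92.7%, the highest value being that of high replicate 2 with low replicate 2. The mean within groups was 90.2% and between groups 88.2%, a difference of 2.01 points, and of the 15 ways to pair the 6 libraries the true pairing gave the largest (exact one-sided permutation test, p = 0.0667, the smallest possible). Without low replicate 1 the difference was 0.539 points (p = 0.4 in the exact permutation test), without low replicate 2 it was 1.31 points (p = 0.133), and without live replicate 1 it was 1.84 points (p = 0.2), so the true pairing was then not the largest.

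Gene ends chosen in the live libraries gave a comparison of high and low that did not use the sorted lists. Both live lists called the same 2 positions, at least 250 bp apart, at 443 ends (400 loci), with a median distance of 784.5 bp between them. The stronger position had a median percentile rank of 18.8 and the weaker of 66.3, and the stronger lay outside the gene at 66.1% of these ends. The pairs were taken from the full live lists, and only the sorted lists were cut to equal length. How often a sorted library called the weaker position is thus in part fixed by that cut. At equal length the high libraries called both positions at 10.6% and 16.3% of these ends, and the low libraries at 15.6% and 15.1%. The high libraries called the stronger position alone at 52.8% and 55.8%, and the low libraries at 57.3% and 58.5%. The weaker position alone was called at 2.03% to 4.51% in the 4 libraries. High averaged 13.4 ± 3.99% and low 15.3 ± 0.319% for both positions (SD, n = 2 each), and the difference of -1.92 points did not pass an exact two-sided permutation test (p = 1). Without high replicate 1 the difference was 0.903 points. With full lists the high libraries called both at 10.6% and 35.4% and the low libraries at 30.7% and 39.1%. All 4 sorted full lists called both positions at 28 ends, the stronger alone at 95 and the weaker alone at 0. Pairs chosen in 1 full live list were also looked for in the other full lists. Of those chosen in live replicate 1, live replicate 2 called both at 32.6% and the stronger alone at 45.8%. In the other direction these shares were 33.5% and 45.7%. Of the pairs of live replicate 1, the high libraries called both at 7.06% and 21.2%, and the low libraries at 18.5% and 24.0%. The sorted libraries called the stronger alone at 47.2% to 54.5%.

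**Figure D4:**
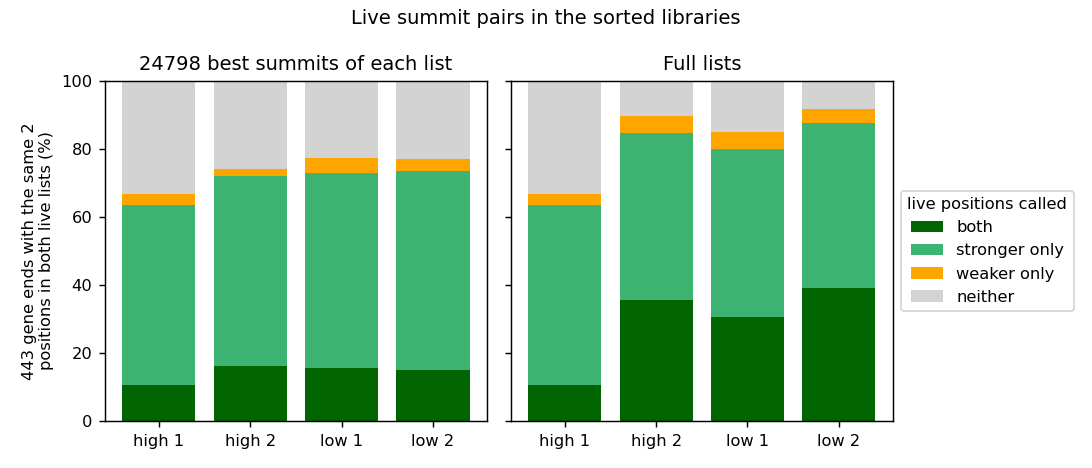
Share (y axis, %) of the 443 gene ends with the same 2 positions in both live lists at which each sorted library called both positions, the stronger alone, the weaker alone or neither, in the best 24798 summits of each list and in the full lists. The pairs come from the full live lists, so the cut of the sorted lists in part fixes the shares at equal length. The stronger position alone is the most frequent outcome in each library, at 52.8% to 58.5% at equal length.

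At 51 ends (46 loci) the same 2 positions were called in all 6 full lists. The highest-ranked of these was CREBRF, a regulator of the transcription factor CREB3, with a position 91 bp upstream of its start and another 904 bp inside the gene. The upstream position had percentile ranks of 15.7 and 10.5 in high, 12.6 and 10.8 in low, and 5.35 and 13.6 in live libraries. The inner position, chr5:173057210-173057296, ranked 4.15 and 6.14 in high, 3.46 and 4.89 in low, and 1.77 and 1.74 in live libraries, so the inner summit was the stronger in every library. HMGN3, a nucleosome-binding protein, had positions 53 bp upstream and 829 bp inside. Its upstream position ranked 13.8 and 4.50 in high, 5.15 and 5.48 in low, and 3.69 and 4.22 in live libraries. Its inner position ranked 14.5 and 8.28 in high, 14.3 and 16.5 in low, and 5.66 and 3.89 in live libraries, and was the weaker in all libraries but live replicate 2.

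RB1, which encodes the retinoblastoma tumour suppressor, had positions 13 bp and 939 bp inside its first annotated base. The position at the start ranked 30.4 and 13.5 in high, 19.8 and 14.4 in low, and 25.0 and 26.0 in live libraries. The position 939 bp inside ranked 42.7 and 25.2 in high, 28.8 and 23.1 in low, and 15.0 and 14.1 in live libraries. The start was thus the stronger of the RB1 pair in all 4 sorted libraries and the weaker in both live libraries. Of the other high-ranking pairs, those of UPF2 and ZNF3 had no protein-coding neighbour within 1000 bp. UPF2, of nonsense-mediated RNA decay, had both positions upstream, at 133 bp and 896 bp. PPP1R7 lay 774 bp from PASK, NEMP1 487 bp from NAB2, and PRKDC, the catalytic subunit of the DNA repair kinase DNA-PK, 805 bp from MCM4. At that last pair, the position 696 bp outside PRKDC had ranks of 2.79 and 4.75 in high, 1.90 and 1.81 in low, and 6.18 and 3.70 in live libraries. The position 20 bp outside PRKDC ranked between 25.9 and 48.2 in the 6 libraries, below the other in each.

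Ends with the most summits in a single list included starts of NAA50, SGSM2, USF1, ALG3, SEPTIN11, USF2, PLGRKT and EIF4E. NAA50, an amino-terminal acetyltransferase, had 4 positions, and only live replicate 1 called all of them. The position 47 bp upstream ranked 11.4 and 8.84 in high, 15.0 and 10.8 in low, and 30.3 and 31.5 in live libraries. A position 706 bp upstream, between NAA50 and an end of its neighbour ATP6V1A at 786 bp, ranked 57.3 and 40.1 in high, 27.9 and 30.2 in low, and 45.7 and 44.1 in live libraries. A position 906 bp inside was called in all lists but live replicate 2. EIF4E, the cap-binding protein of translation, had its position 63 bp upstream of the start in all 6 lists, at ranks of 6.39 and 4.74 in high, 5.66 and 3.81 in low, and 12.4 and 13.0 in live libraries. Its position 953 bp upstream was missing from live replicate 2, and the 1 at 846 bp inside was missing from high replicate 1 and live replicate 1.

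**Figure D5:**
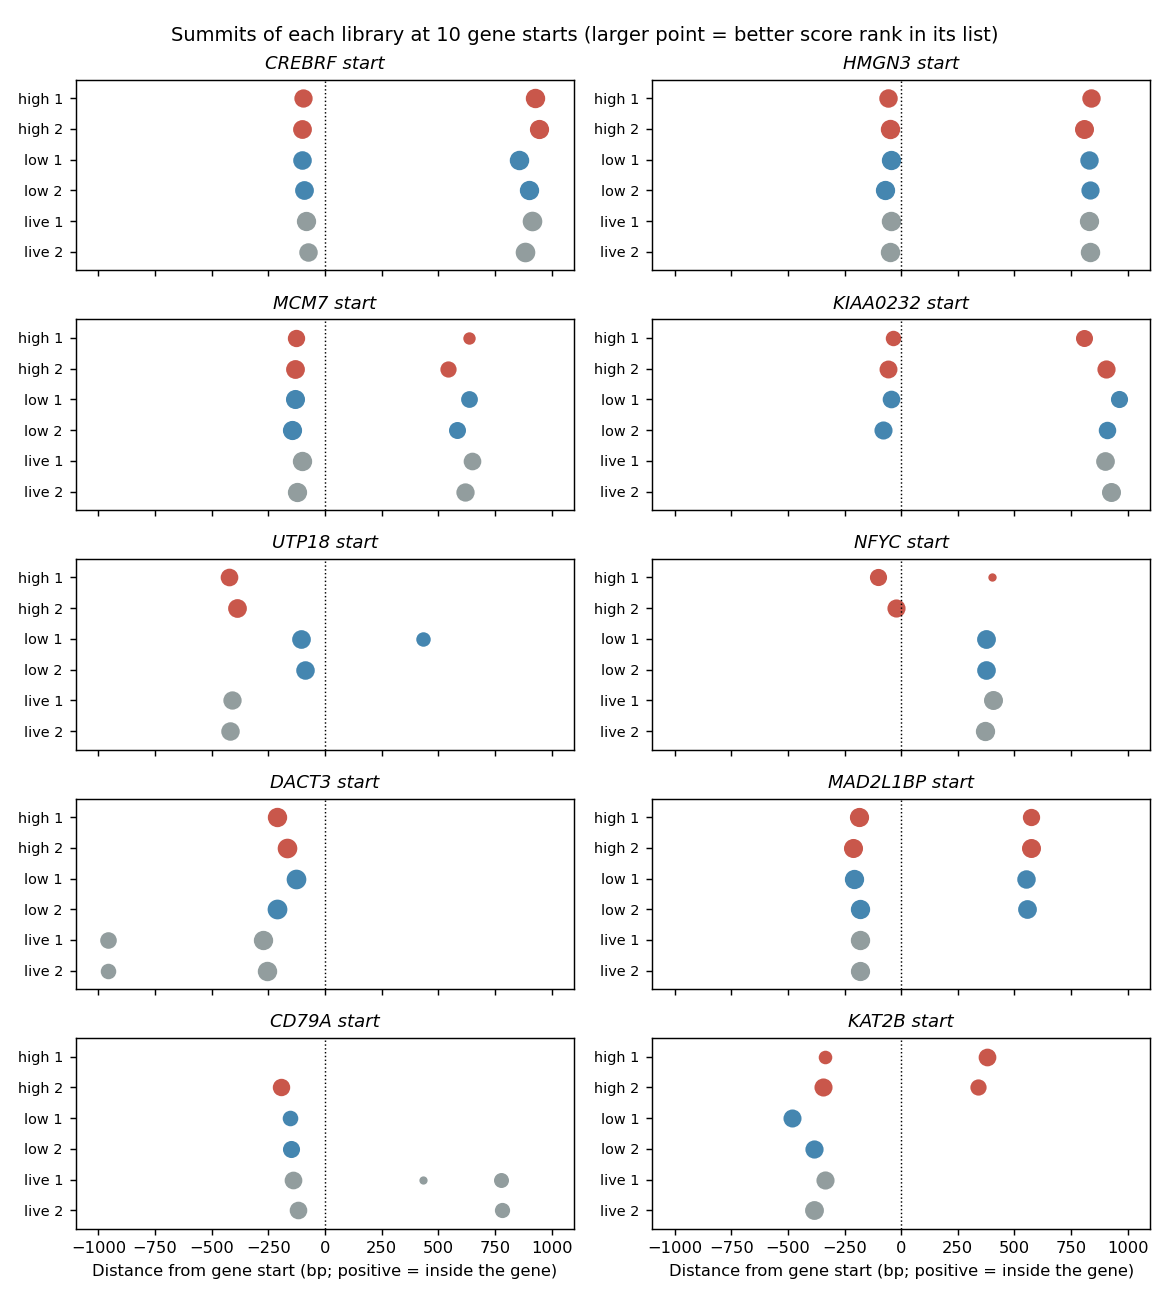
Summits of each library (rows, high at the top, then low, then live) by distance from the gene start (x axis, bp; positive is inside the gene) at 10 gene starts, with larger points for better score ranks within the library's list. CREBRF and HMGN3 show 2 columns of 6 summits, UTP18 and NFYC show the best summit at different places in high and low libraries, and MAD2L1BP lacks the inner column in the live rows.

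Few ends had their best summit at different positions in high and low libraries. At equal length, 27 of 2125 of the ends with a summit in all 4 sorted libraries (1.27%; 22 loci) had it at 1 position in both high and at another in both low libraries. Over all gene ends with a summit in the 4 libraries the share was 1.16% (96 of 8258), so the share at the doubled ends was near the background. The high position was the farther out of the gene at 16 of the 27 and the farther in at 11, and the median distance between the positions was 419 bp, the least 123 bp. At 19 of the 27 the positions lay at least 250 bp apart. At 34 ends (0.412% of the 8258) both high libraries and neither low library had 2 or more summits, and at 16 ends (0.194%) both low and neither high library did. The rule itself makes all of these doubled ends, and nothing is read from them. In the full lists the order was the opposite, with 42 such ends for high and 73 for low of 8726.

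At UTP18, a component of the small ribosomal subunit processome, the position 410 bp upstream ranked 22.1 and 11.0 in high libraries and 15.6 and 13.6 in live libraries, and no low library called it. An end of the neighbour MBTD1 lay 412 bp from the UTP18 start. The position 97 bp upstream of UTP18 ranked 11.4 and 13.1 in the low libraries and was called in no other. High and live libraries thus shared 1 UTP18 position and the low libraries had their own. No list called both of them. UTP18 was doubled in low replicate 1 alone, through another position 431 bp inside at rank 50.6. At NFYC, a subunit of the CCAAT-binding factor NF-Y, the position 62 bp upstream ranked 26.9 and 17.2 in the high libraries and was called in no other. The position 385 bp inside NFYC ranked 10.3 and 11.8 in low and 8.36 and 5.45 in live libraries, and 89.7 in high replicate 1 alone of the high libraries. The neighbouring gene RIMS3 had an end 362 bp from the NFYC start, close to that inner position. At BLTP1 the high libraries had a position 84 bp upstream, at ranks of 24.1 and 15.0. The low and live libraries had 1 that was 44 bp inside BLTP1, at ranks of 8.15 and 14.5 in low and 6.45 and 4.14 in live libraries.

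KIAA0232 was the first by rank of the ends where the high summit lay farther in. Its position 901 bp inside ranked 28.2 and 16.8 in high, 27.3 and 23.9 in low, and 11.4 and 8.11 in live libraries. The position 55 bp upstream of KIAA0232 ranked 42.6 and 19.5 in high and 22.3 and 17.8 in low libraries, and no live library called it. The inner summit was the stronger in both high libraries and the weaker in both low libraries, although the ranks of the pair lay close together in high replicate 2 and low replicate 1. MYO19, a mitochondrial myosin, lay 104 bp from GGNBP2. Its high summit was 186 bp upstream, at ranks of 47.9 and 31.8, and its low summit 684 bp upstream, at ranks of 13.3 and 14.2 in low and 12.2 and 15.0 in live libraries. High replicate 1 also called that MYO19 position, at rank 91.6, and was the only list doubled there. At DTNBP1 the position 579 bp inside was called in both high libraries, at ranks of 49.9 and 37.4, in neither low library, and in live replicate 2.

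Differences between all 4 sorted and both live libraries were also few. At equal length the best position differed in this way at 33 of the 2009 doubled ends with a summit in all 6 libraries (1.64%; 29 loci), beside 1.3% of all such gene ends (104 of 7980). In the full lists, 128 ends (116 loci) had 2 positions in both live libraries of which all 4 sorted libraries called the same 1 alone, and 9 ends (9 loci) had 2 in all sorted libraries of which both live libraries called the same 1 alone. Where summits of a position that fell just beyond the 1000 bp window were also counted as calls, these numbers were 124 and 8. The live lists were longer, and the part of length in these unequal numbers was not tested. DACT3, an inhibitor of Wnt signalling, had a position 208 bp upstream at ranks of 4.44 and 1.65 in high, 0.899 and 0.159 in low, and 4.79 and 3.90 in live libraries. Its position 957 bp upstream ranked 32.1 and 42.1 in the live libraries and was in no sorted list. EGLN2 and ATP6V1F had the same form, with the live-only position at ranks between 36.7 and 46.1. At WRN, a DNA helicase, the position 988 bp inside ranked 38.1 and 32.0 in the live libraries, and low replicate 2 had its summit of that position beyond the window, 1044 bp inside.

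DNAJB4, a co-chaperone of heat shock protein HSP70, was doubled in all 6 lists but with different inner positions. Its position 846 bp upstream ranked 15.4 and 10.7 in high, 19.8 and 16.9 in low, and 10.6 and 8.34 in live libraries. A position 10 bp inside DNAJB4 ranked 7.65 and 12.3 in high and 6.62 and 8.34 in low libraries and was in no live list. A position 222 bp inside ranked 5.76 and 11.2 in the live libraries and was in no sorted list. At MAD2L1BP, whose product silences the mitotic checkpoint, the position 192 bp upstream ranked 6.05 and 7.61 in high, 5.25 and 5.06 in low, and 4.71 and 6.15 in live libraries. The position 564 bp inside MAD2L1BP, chr6:43630089-43630115, ranked 25.7 and 8.24 in high and 13.7 and 10.9 in low libraries. It was in neither live list, and the reason was not tested. SRSF5, a splicing factor, showed the same arrangement at 670 bp inside, at ranks of 42.3 and 14.1 in high and 16.6 and 16.4 in low libraries. PNRC1, a nuclear receptor coactivator, met the rule only through the window edge: its position 973 bp inside ranked 46.3 and 10.6 in high and 12.0 and 9.50 in low libraries, and live replicate 1 had its summit of that position 1027 bp inside, at rank 13.98. TMEM123, ATAD2B and TTC33 had sorted-only inner positions of lower rank, between 36.6 and 76.7.

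Gene lists were read against all genes, of which 16.3% had a doubled end, or 25.1% of the 12435 with a summit at an end. Of the 3126 genes with a doubled end, 445 were doubled in 4 or more lists and 69 in all 6. Of 20 B cell transcription factor genes, 8 had a doubled end (PAX5, EBF1, IRF4, SPI1, SPIB, POU2AF1, FOXO1 and PRDM1), and 16 had a summit. None of the 8 was doubled in 4 or more lists. Of 19 B cell surface and signalling genes, 8 had one, among them CD79A, CD79B, CD22, CD40, CR2, LYN and CD58, with 1 doubled in 4 or more lists. Of 18 NF-kB and activation genes, 6 had one (NFKB1, RELB, TNFAIP3, CCL22, MYC and ICAM1), 2 of them in 4 or more lists. Doubled ends were few among mitosis genes, with 1 of 16 (AURKB), and among developmental genes of other lineages, with 1 of 15 (CDX2), of which 3 had any summit.

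EBF1, a factor that specifies the B lineage, had its main position 496 bp upstream of the start, at ranks of 24.8 and 26.6 in high, 14.1 and 23.3 in low, and 12.5 and 15.8 in live libraries. A position 670 bp inside EBF1 ranked 88.6 and 85.2 in the low libraries and was called in no other, near the weak end of those lists. CD79A encodes the Ig-alpha chain of the B cell receptor. Its position 152 bp upstream ranked 24.5 in high replicate 2, 41.3 and 27.6 in low, and 21.7 and 22.6 in live libraries, and high replicate 1 had no CD79A summit. A position 780 bp inside CD79A ranked 46.4 and 44.4 in the live libraries and was in no sorted list. CD79B, its partner chain, likewise had a position 50 bp outside its end in all 6 lists and 1 at 872 bp inside in the live libraries alone, at ranks of 62.8 and 60.3. SPIB, an ETS-family factor of B cells, was doubled in live replicate 2 alone, with summits of rank 80.4 at 398 bp upstream and 71.2 at the start. PRDM1, the regulator of plasma cell differentiation, was doubled in live replicate 1 alone, by a position 665 bp upstream at rank 70.0.

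Of 17 DNA replication genes, 5 had a doubled end (MCM4, MCM7, PCNA, CDT1 and TYMS). Of these, 2 were doubled in all 6 lists, beside 69 of the 3126 genes with a doubled end. MCM7, a subunit of the replicative helicase, had a position 127 bp upstream at ranks of 25.3 and 10.3 in high, 7.64 and 6.32 in low, and 4.76 and 5.69 in live libraries. Its position 610 bp inside ranked 66.2 and 35.6 in high, 30.5 and 28.3 in low, and 22.1 and 15.7 in live libraries. The neighbouring gene AP4M1 had an end 603 bp from the MCM7 start, close to that inner position. The inner position was the weaker in each of the 6 libraries.

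Of 20 genes of histone acetylation, 10 had a doubled end, among them EP300, CREBBP, KAT2B, KAT6A, KAT7, HDAC1, HDAC2, SIRT1 and SIRT7, with 2 of the 10 in 4 or more lists. KAT2B, the acetyltransferase PCAF, had a position 378 bp upstream at ranks of 57.7 and 17.8 in high, 18.3 and 16.7 in low, and 17.2 and 10.1 in live libraries. A position 359 bp inside KAT2B ranked 21.5 and 35.5 in the high libraries and was called in no other list. EP300, the acetyltransferase p300, had a position 964 bp upstream at ranks of 10.8 in high replicate 2, 7.59 and 4.83 in low libraries and 19.3 in live replicate 2. High replicate 1 and live replicate 1 had their summits of that EP300 position just past the window, at 1003 bp and 1020 bp upstream and at ranks of 14.6 and 11.3, so all 6 lists held it. The position 71 bp upstream of EP300 was called in the low and live libraries alone, at ranks between 34.2 and 54.8. SIRT1, a deacetylase, was doubled in high replicate 1 alone, by a position 442 bp inside at rank 51.3, beside a position 62 bp upstream that all 6 lists held. Of 18 Polycomb and DNA methylation genes, 3 had a doubled end (EZH2, BMI1 and DNMT3A), and EZH2 had its inner position, 760 bp from the start, at rank 96.6 in high replicate 2 and in low replicate 2. Of 13 housekeeping genes, 6 had one, among them ACTB, B2M, EEF1A1, EEF2 and PPIA.

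Doubled ends were set beside the single-summit ends of the same library for features that the rule did not use. At equal length, an end of another protein-coding gene lay within 1000 bp of 34.2% and 37.1% of the doubled ends of the high libraries, 38.0% and 43.9% of those of low and 42.0% and 39.4% of those of live libraries. Single ends had such a neighbour in 31.0% to 31.6%. The doubled ends were higher in 6 of 6 libraries, by 7.70 percentage points on average (exact two-sided sign-flip permutation test over 6 libraries, p = 0.0312, the smallest possible). The libraries share gene ends, so that test measures only the spread between them. Ends close to each other can share summits, and with 1 end per locus the difference was 5.83 points (exact sign-flip permutation test, p = 0.0312). In the full lists the difference was 1.57 points (exact permutation test, p = 0.0625). Of the ends doubled in all 6 lists, 28 of 69 (40.6%) had a neighbour, and of those doubled in 1 list 452 of 1654 (27.3%). Gene length, promoter GC content and the promoter CpG ratio, observed over expected, differed by 355 bp, 0.25 percentage points and 0.00411 at equal length, and none passed the exact permutation test (p = 0.875, 0.688 and 0.5). With full lists the GC difference was 1.44 points (exact permutation test, p = 0.0312).

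Doubled starts also had another RefSeq start of any gene at least 250 bp away and within 1000 bp more often than single starts at equal length, as a description with no test. At equal length this held for 38.1% and 43.9% of doubled starts in high, 38.0% and 42.5% in low and 41.0% and 40.3% in live libraries, against 27.7% to 28.3% of single starts. With full lists it held for 38.1% and 34.5% of doubled starts in high, 33.6% and 34.5% in low and 29.7% and 27.9% in live libraries. The single starts of those lists had 28.3% and 27.1% in high, 27.3% and 26.7% in low and 26.8% and 27.1% in live libraries, so the gap was small in the live libraries. Over the full lists it held for 737 of the 2409 starts (30.6%), and for 23 of the 47 starts doubled in all 6 lists (48.9%), against 25.9% of the 7306 other starts with a summit.

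Promoter sequences were at hand for 2300 of the doubled starts, 6962 starts with a single summit, 4606 with no summit and 13868 in all, each from 250 bases before to 50 after the start. The median GC content was 67.3% at doubled starts, 65% at single-summit starts and 55% at starts without a summit. The CpG ratio was 0.865 at doubled, 0.843 at single-summit and 0.321 at starts without a summit. At the 302 starts doubled in 4 to 6 lists, the median GC content was 65.7%, close to that of single-summit starts, and the CpG ratio was 0.863. The GC box GGGCGG, bound by SP1, was present on either strand in 75.7% of doubled and 70.5% of single-summit promoters, beside 59.4% of all promoters. The ETS motif CCGGAAG was present in 16.8% of doubled, 22.1% of single-summit and 14.9% of all promoters. The CCAAT box was present in 34.8%, 38.3% and 36.4% of the same classes, and TATAAA in 5.74%, 5.63% and 9.84%. The NRF1 motif GCGCATGCG was present in 3.39%, 4.35% and 2.89%, the YY1 motif AAGATGGCG in 4.17%, 4.21% and 2.90%, the CREB motif TGACGTCA in 3.30%, 3.55% and 2.73%, and CTCGCGAG in 2.17%, 2.23% and 1.60%. AAGATGGCG and CCGGAAG were searched separately from overlapping longer forms, and a match is a description of these letters and not a bound site.

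Few ends lay close to the distance minimum, although a minimum of 500 bp left 2675 ends. Just inside it lay NPM2, with summits 254 bp apart, NBAS at 255 bp and NMI at 266 bp, each in 1 list, and 46 ends had their widest pair less than 100 bp above the minimum. Just outside it lay 4 ends, GALR2 and SRP68 at 237 bp, NEURL1 at 236 bp and PLCH1 at 217 bp. For changes of 100 bp the window mattered more, since widening it by 100 bp would add 242 ends and narrowing it by 100 bp would lose 296.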

How the data were processed

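Per the submitters' processing notes, bcl2fastq, FastQC, Bowtie2, Picard and MACS2 were used, with no versions, and the builds hg38 and hg19. Caller settings, the Tn5 shift and duplicate handling were not given in the sources used here. The authors deposited 1 list of single-base summits per library, called per library, with a score read as the −log10 of a p-value or q-value. Scores ranked summits within a list and were never compared between lists. No read counts were used, so depth is unknown, and Wilson intervals cover counting error only. The labels' staining protocol writes H3K37ac, read as H3K27ac.

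Gene ends came from RefSeq (GRCh38.p14), and start or stop from the strand in the RefSeq promoter table. Work was done in Python 3.11.15 with numpy 2.4.6, pandas 2.3.3, scipy 1.17.1 and matplotlib 3.10.9, and was tested on simulated lists. Libraries were compared by exact permutation tests with full lists and with the best 24798 summits of each. The members and gene lists were chosen with earlier results of these data known. Named ends were, 1 per locus, the first by worst percentile rank in each of these classes: most summits in 1 list (8 ends), the same 2 positions in all lists (10), best position differing between high and low (6 each way) or 2 against 1 position between sorted and live (6 each way), and up to 3 ends per gene list. Some ends and list members are not reported here. Alternatives covered list length, window, position width, each library left out and the replicate number as a block.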

Additional observations from a re-analysis of the deposited data

How the results depend on the processing

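Of 152 recomputed values, 108 kept their direction and, where tested, their side of the threshold, though not always their size: with full lists the recovery of live pairs differed by -11.9 points between high and low, the outside share by 0.578 points between sorted and live, and gene length by 1178 bp. Some of the 152 values could not change. The width for joining positions does not enter the outside share, the weaker summit's rank or the comparisons with single-summit ends. Live libraries do not enter the outside share or the weaker summit's rank of high against low, so leaving 1 out changes neither. The replicate block repeats its differences by arithmetic. Taking 1 end per locus gave a CpG difference of 0.000202. No read depth was at hand, and 2 libraries per group limit every comparison of high with low. The equal-length lists let high replicate 1 keep its weakest summits. With full lists the median rank of the weaker summit differed by 2.30 between high and low, the neighbour difference was 1.57 points (p = 0.0625, exact permutation test) and the GC difference 1.44 points (p = 0.0312, exact permutation test). With the best 12399 summits, the share of best summits outside differed by 6.17 points between high and low, gene length by 4722 bp (p = 0.0312, exact permutation test) and GC by -0.0278, and 12 ends had a best position that differed. With a window of 500 bp, the outside share differed by 8.38 points, neighbours by 9.13 (p = 0.0625, exact permutation test), gene length by -4450 bp, GC by -1.67 and the CpG ratio by -0.0682, 5 ends had a differing best position, and 883 ends met the rule. With lists of equal length, 910 ends met it. With positions joined within 50 bp, 41 ends had a differing best position. With 40489 summits and no high replicate 1, an alternative chosen after seeing the data, the recovery of live pairs differed by 0.677 points, the outside share by 1.99, the weaker summit's rank by 3.16, neighbours by 3.30 (p = 0.0625, exact permutation test) and gene length by -1082 bp, and 150 ends had a differing best position. The best 50% of each list called 21.0% and 33.6% of positions in high, 33.9% and 36.9% in low, and 41.7% and 41.7% in live libraries. The cause of these changes was not tested, except that shorter lists and a narrower window hold fewer summits. Where a high or low library is left out, here and below, its group holds 1 library. The count of ends with a differing best position then asks for less agreement by definition.

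Leaving out 1 library at a time gave 0.539 to 4.71 points for agreement within groups (the lowest without low replicate 1), 24 to 177 ends with a differing best position, -6.71 to 0.230 points for the outside share of high against low and 4.01 to 8.53 for sorted against live. It gave -641 to 847 bp for gene length, 6.77 to 8.71 points for neighbours (p = 0.0625 in each, the smallest that 5 libraries allow in an exact permutation test), 0.000973 to 0.00624 for the CpG ratio, -0.1 to 0.467 for GC and 2718 to 3038 ends. For high against low it gave -1.66 to 1.24 for the weaker summit's rank and -4.74 to 0.903 points for the recovery of live pairs, where the positive value is that without high replicate 1. The replicate numbers did not pair the libraries (correlations of 0.0419, 0.00309 and 0.00709). Differences of high against low taken within each replicate number average to the same values by arithmetic, -1.92, -3.24 and -0.214. Their exact sign-flip permutation p were 1, 0.5 and 1, where 0.5 is the smallest possible.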
